A study of Homo sapiens with 9 samples.

Results

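The genes described here are 10 genes of protein folding in the endoplasmic reticulum (ER) and of the unfolded protein response: HSPA5, HSP90B1, HERPUD1, XBP1, DNAJB9, SDF2L1, PDIA4, CALR, CANX and ERN1. They were chosen by symbol, and each matched 1 of the 60617 Ensembl gene identifiers in the files. RNA-seq was performed on PC-3, an established human prostate carcinoma cell line grown in RPMI 1640 medium with fetal calf serum. The 3 control samples received a vehicle of sulfuric acid and ethanol in PBS. Decitabine, a cytidine analogue that traps DNA methyltransferases, was given at 1 µM to the 3 samples of the decitabine-treated group. In the 3 samples of the combination treatment, 200 µM of SAM (S-adenosylmethionine), the methyl donor of the cell, was added to the same dose of decitabine. The labels give 5 days of treatment in a sentence on the extraction of DNA, the methods list several treatment times, and doses are those of the methods. All groups were the same line, for which the labels name no genetic change, and SAM given by itself was not analysed here. Neither the labels nor the methods state that the 3 samples of a group came from separate cultures, so p-values measure the spread between these samples, which may be technical. In bulk RNA, fewer cells of a type and less RNA per cell cannot be told apart. Libraries held 21934307 to 22489684 counts.

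The ER is where secreted and membrane proteins fold. When unfolded proteins accumulate there, sensors in the ER membrane start the unfolded protein response, which raises chaperones, folding enzymes and the machinery that removes misfolded proteins. The chaperone BiP, encoded by HSPA5, binds unfolded chains and also holds the sensors inactive. The sensor IRE1, encoded by ERN1, splices the XBP1 mRNA so that it codes for an active transcription factor, the sensor ATF6 is released by proteases in the Golgi, and the sensor PERK slows translation and raises the transcription factor ATF4. Secretory epithelia, including that of the prostate, rely on this system to export large amounts of protein. Gene counts show neither the splicing of XBP1 nor the activity of a sensor.

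The response acts on promoters through a sequence called the ER stress response element (ERSE), CCAAT followed by 9 bases and CCACG, and through its short form ERSE-II, ATTGG followed by 1 base and CCACG. Both were searched on both strands in RefSeq promoter windows of the assembly GRCh38.p14, which span 250 bases before to 50 bases after an annotated start. All 10 genes matched, with 15 windows between them. An exact ERSE was found in 5 of the 10 genes, with 2 sites in HSP90B1, and an exact ERSE-II in 2 others. Of all 35116 windows, 27 (0.0769%) held an ERSE and 19 (0.0541%) an ERSE-II. All exact sites of both elements found in windows of the 10 genes are printed. Each is written in the direction of the motif, with the fixed bases in capitals.
HSPA5, ERSE at chr9:125241391-125241409: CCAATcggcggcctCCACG
HSP90B1, ERSE at chr12:103930216-103930234: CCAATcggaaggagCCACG
HSP90B1, ERSE at chr12:103930321-103930339: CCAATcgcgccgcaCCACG
XBP1, ERSE at chr22:28800603-28800621: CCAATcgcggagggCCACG
CALR, ERSE at chr19:12938384-12938402: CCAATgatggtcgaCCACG
CANX, ERSE at chr5:179698778-179698796: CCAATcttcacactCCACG
HERPUD1, ERSE-II at chr16:56932025-56932035: ATTGGgCCACG
SDF2L1, ERSE-II at chr22:21642114-21642124: ATTGGtCCACG

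Each of the 8 sites lay before a start site, the nearest beginning 52 bases from it (XBP1) and the farthest 225 bases (CALR). DNAJB9, PDIA4 and ERN1 held neither element in their windows. The element TGACGTGG, called UPRE, was in 0.729% of all windows and the ATF4-type element TGATGCAAT in 0.236%, and neither was in a window of the 10 genes. With 1 mismatch allowed, the ERSE was in 1.55% of all windows and in windows of 7 of the 10 genes. For ERSE-II it was 1.23% and 3 genes, for UPRE 17.2% and 4 genes, and for the ATF4-type element 4.3% and 1 gene, HERPUD1. The 10 genes had 15 windows, so shares of windows and counts of genes are unlike measures. The reverse complement of UPRE also contains CCACG, so these motifs overlap in their letters. A match of letters is a description and not a measured binding site. The stretches before HSPA5 (GRCh38.p14, chr9:125241383-125241593, minus strand) and before HERPUD1 (chr16:56931892-56932141, plus strand), the genes with the lowest fold changes in both treatments, are shown with the fixed bases of the elements in capitals.
HSPA5: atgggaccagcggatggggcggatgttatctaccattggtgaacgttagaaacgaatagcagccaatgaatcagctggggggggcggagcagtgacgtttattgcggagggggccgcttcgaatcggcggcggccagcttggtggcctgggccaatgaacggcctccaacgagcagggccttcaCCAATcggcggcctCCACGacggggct
HERPUD1: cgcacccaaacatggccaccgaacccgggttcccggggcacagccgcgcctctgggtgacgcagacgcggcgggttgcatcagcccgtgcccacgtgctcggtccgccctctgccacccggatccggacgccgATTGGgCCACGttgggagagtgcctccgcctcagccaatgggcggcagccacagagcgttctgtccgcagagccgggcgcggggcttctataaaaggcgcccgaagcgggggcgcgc

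Before the groups were compared, the control samples were compared with each other, since they differed in these genes. Expression is given as CPM, counts relative to the TMM-scaled size of the library. All 10 genes were highest in control replicate 1 and lowest in control replicate 3. The same order was found in 2623 of the 10225 genes of at least 10 CPM in the controls. The highest control was at least 1.5 times the lowest in 7 of the 10 genes, against 190 of the 10225 genes of at least 10 CPM in the controls (1.86%). The ratio was 2.53 for SDF2L1, 2.1 for HSPA5, 2.02 for PDIA4, 1.88 for HERPUD1, 1.81 for HSP90B1, 1.8 for DNAJB9 and 1.72 for CALR. These 7 genes were within the 100 genes of the largest ratio among the 10225, with SDF2L1 at rank 6 and HSPA5 at rank 20. XBP1 (1.46), ERN1 (1.24) and CANX (1.21) were more even, and the median ratio of the 10225 genes was 1.12. In the treated groups, a ratio of at least 1.5 was found in 1 of the 10 genes with decitabine (SDF2L1, 1.6) and in 2 in the combination group (DNAJB9, 1.57, and ERN1, 1.54), against 2.76% and 3.12% of the same 10225 genes. Control totals (22356574 to 22489684 counts) and TMM factors (0.8948 to 0.9021) were close to each other. The cause of the spread was not tested. The number of the 10 genes that passed the test is therefore also given without replicate 1 and without replicate 3 of the controls.

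**Figure D1:**
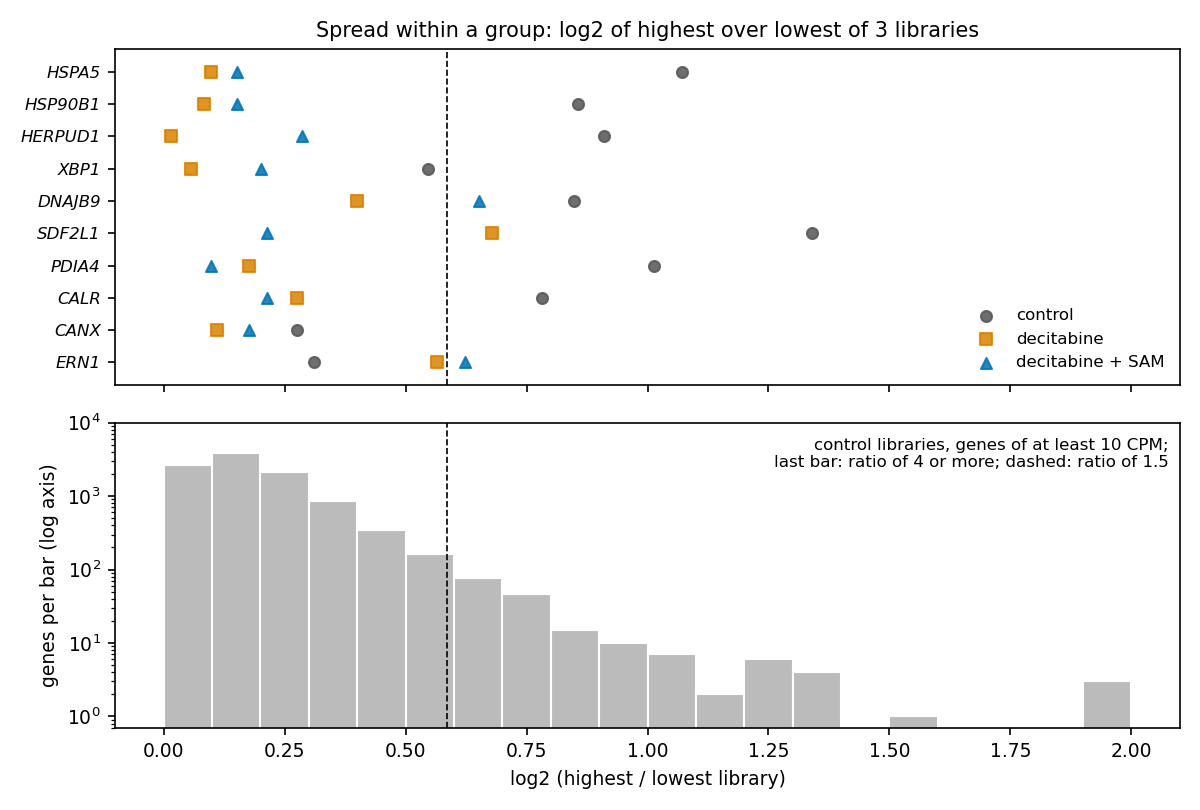
Spread of each gene within a group of 3 libraries. The upper panel gives, for each of the 10 genes, the log2 ratio of the highest to the lowest library in each group; the lower panel gives the number of genes of at least 10 CPM (log axis) at each log2 ratio among the controls, and the dashed line marks a ratio of 1.5, passed by 7 of the 10 genes in the controls.

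The same difference between controls was seen in other genes of ER folding and was not shared by all chaperones. Of the 8 genes of the ER Hsp70 system (BiP cofactors) of at least 10 CPM, 5 had a ratio of at least 1.5, led by HYOU1 with 849, 611 and 392 CPM. In the ER-associated degradation list it was 6 of 19 and in the ATF4 list 5 of 12. The other lists had fewer, with 2 of 18 isomerases, 1 of 20 translocon and glycosylation genes, 1 of 9 sensors and transcription factors, and 0 of 7 lectin chaperones. Among 18 chaperones and proteases of the cytosol and mitochondria 3 passed the ratio, namely HSPA1A, HSPA1B and HSPA8, all of them lowest in control replicate 1 and highest in control replicate 3. HSPA8, the constitutive Hsp70 of the cytosol, had 1280, 1797 and 2107 CPM. Transcripts of HSPA1A and HSPA1B are nearly identical, so their counts are uncertain.

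The epithelial keratins KRT8 and KRT18 and the epithelial adhesion molecule EPCAM were found in every library, with control means of 120, 426 and 17.3 CPM. With decitabine these means were 264, 358 and 20.4 CPM, while the combination group had 208, 316 and 21.9 CPM. The prostate antigen KLK3 had 0 counts in all 9 libraries. The blood cell marker PTPRC had 1 to 2 counts in the controls and 13 to 30 in the treated samples. The endothelial marker PECAM1 had 197 to 206 counts in the controls and 700 to 990 in the treated samples. The part of these differences in the results was not tested.

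Most of the 10 genes were lower in both treated groups than in the controls. Where 2 values are given for a gene, decitabine alone comes first and the combination second. HERPUD1 fell to 28.9% and 23.9% of its control mean, and HSPA5 to 32.3% and 26.8%. XBP1, CALR, PDIA4 and HSP90B1 fell less, to between 58.6% and 73.6% of the control mean. CANX and ERN1 were not differentially expressed in either treatment. SDF2L1 passed the test only with decitabine and DNAJB9 only with the combination treatment. Between the treatments, neither passed in the fit over all 9 libraries (edgeR adjusted p = 0.26 and 0.58). In edgeR's quasi-likelihood test at an adjusted p of 0.05, 7 of the 10 genes were downregulated and 0 upregulated with decitabine, where 32.5% of the 18532 genes tested were downregulated and 36.3% upregulated. With the combination treatment it was also 7 downregulated and 0 upregulated, against 31.3% and 35.9% of all genes. All 10 genes had passed the filter on low counts. The 10 genes had medians of -0.62 and -0.75 on the log2 scale, where all genes tested had medians of 0.035 and 0.048. Both comparisons use the same 3 controls, so their counts are not separate evidence. A fall of more than 1 on the log2 scale was found in 3 of the 10 genes with decitabine and in 2 with the combination treatment, against 6.15% and 6.56% of all genes.

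These counts depended on the controls and on the scaling. Without control replicate 1, 6 genes were downregulated with decitabine and 7 with the combination treatment, and without control replicate 3 it was 8 and 8. Without decitabine replicate 1 or 3, 5 genes were downregulated with decitabine. Without combination replicate 1, the number with the combination treatment fell to 4, which were HSPA5, HERPUD1, XBP1 and CALR. Shares of all genes are not given for the fits that left out 1 library. A change in all calls therefore cannot be told apart from a change in these genes. TMM factors were 0.8948 to 0.9021 in the controls and 1.033 to 1.078 in the treated samples. Scaling by library size alone, which leaves these factors out, moved the medians of all genes tested to 0.281 and 0.268. With it, 5 of the 10 genes were downregulated with decitabine and 4 with the combination treatment, and CANX was upregulated in both. Of all genes tested, this scaling called 20.2% downregulated and 47.7% upregulated with decitabine, and 20.8% and 46.9% in the other comparison.

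**Figure D2:**
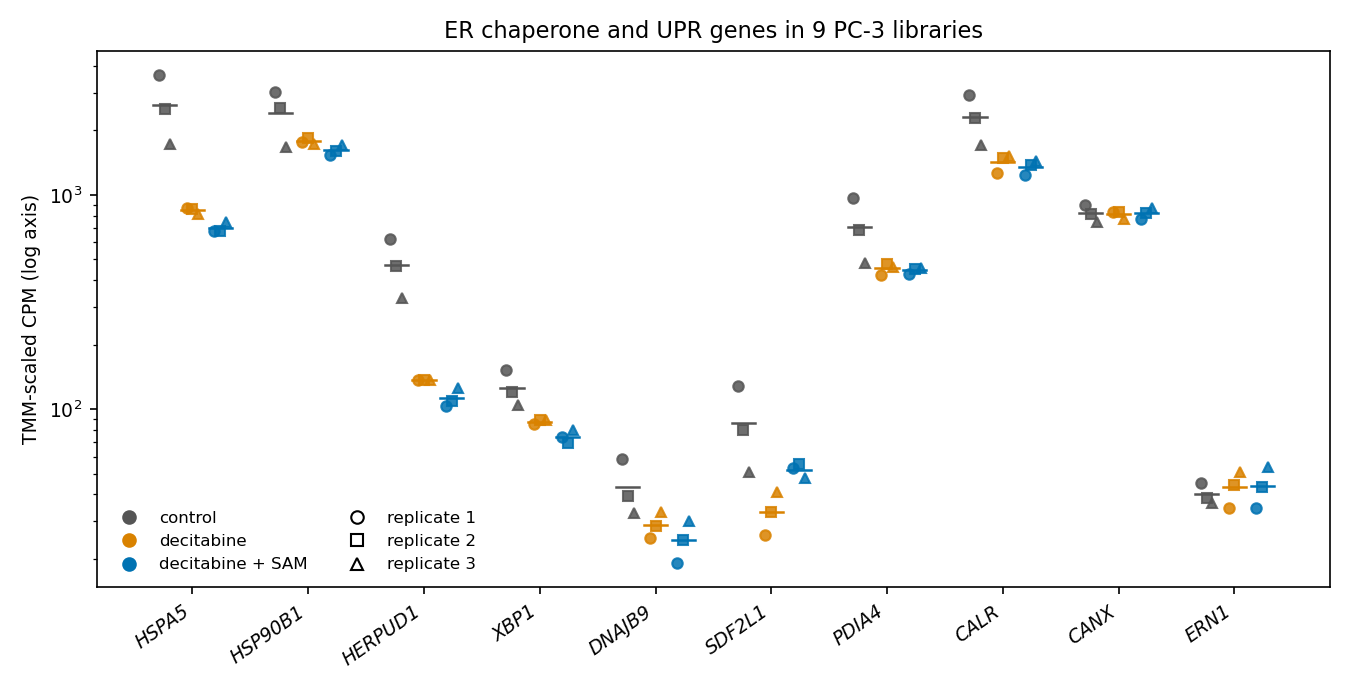
Expression of the 10 genes in each of the 9 libraries as TMM-scaled CPM on a log axis, with the replicate given by the symbol and the group mean by the horizontal bar. For HSPA5 and HERPUD1 the controls are spread over a ratio of 2.1 and 1.88 and every treated sample is under every control, while for ERN1 the treated samples are spread more widely than the controls.

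HSPA5 (ENSG00000044574, chr9:125234853-125241382, minus strand) encodes BiP, the Hsp70 chaperone of the ER lumen. It had 3625, 2507 and 1729 CPM in the controls, 865, 861 and 811 CPM with decitabine, and 680, 675 and 751 CPM with the combination treatment. The lowest control was still above every treated sample, so the groups did not overlap. Its log2 fold change was -1.63 with decitabine (standard error 0.23, edgeR adjusted p = 0.00032) and -1.9 with the combination treatment (standard error 0.23, edgeR adjusted p = 0.00014). It stayed significant whichever of the 9 libraries was left out, with log2 fold changes between -1.87 and -1.33 with decitabine and between -2.14 and -1.6 with the combination treatment.

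HSP90B1 (ENSG00000166598, chr12:103930107-103953931, plus strand) encodes GRP94, the Hsp90 chaperone of the ER. It had 3039, 2556 and 1680 CPM in the controls, 1768, 1845 and 1738 CPM with decitabine, and 1537, 1611 and 1704 CPM with the combination treatment. Control replicate 3 lay under all 3 decitabine samples and among those of the combination treatment, so the groups overlapped in both comparisons. The log2 fold change with decitabine was -0.44 (standard error 0.17, edgeR adjusted p = 0.04). This call held in only 2 of the 9 fits that left out 1 library, those without control replicate 3 or combination replicate 2. With the combination treatment the value was -0.58 (edgeR adjusted p = 0.012), significant in 8 of the 9 fits and lost without combination replicate 1. Neither value passed with library size alone (edgeR adjusted p = 0.35 and 0.095). UQCC6 and TTC41P overlap HSP90B1 on the other strand, and the strand setting of the library kit is not given in the sources used here. They had mean counts of 417 and 94.2 against 42759 for HSP90B1.

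DNAJB9 (ENSG00000128590, chr7:108569867-108574850, plus strand) encodes ERdj4, a J-protein that works with BiP and represses IRE1. Its expression was 58.7, 39.2 and 32.6 CPM in the controls, 24.9, 28.4 and 33 CPM with decitabine, and 19.1, 24.6 and 30 CPM with the combination treatment. Decitabine replicate 3 was above control replicate 3, while all samples of the combination treatment were under all controls. With decitabine the log2 fold change of -0.6 did not pass the test (95% interval -1.16 to -0.03, edgeR adjusted p = 0.059), and with the combination treatment it fell by 0.82 (standard error 0.25, edgeR adjusted p = 0.018). The decitabine value was significant without control replicate 3 (log2 fold change -0.78, edgeR adjusted p = 0.015) and without combination replicate 1 or 3. It was also significant with DESeq2 (adjusted p = 0.0071) and with voom and limma (adjusted p = 0.025). That of the combination treatment lost significance without combination replicate 1 (edgeR adjusted p = 0.052) and with library size alone (edgeR adjusted p = 0.067).

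SDF2L1 (ENSG00000128228, chr22:21642302-21644299, plus strand) encodes an ER protein that assists J-proteins and BiP. It had the widest spread in the controls, with 128, 79.8 and 50.8 CPM. Decitabine samples had 25.7, 32.9 and 41.1 CPM, all under the lowest control, and those of the combination treatment 53.2, 55.3 and 47.6 CPM, around the lowest control. The log2 fold change was -1.38 with decitabine (standard error 0.35, edgeR adjusted p = 0.01), significant in all 9 fits that left out 1 library. With the combination treatment it was -0.73 (95% interval -1.54 to 0.08, edgeR adjusted p = 0.096). It became significant without control replicate 3, where the log2 fold change was -1.01, and without control replicate 1 the value was -0.34.

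HERPUD1 (ENSG00000051108, chr16:56932142-56944864, plus strand) encodes an ER membrane protein of the complex that sends misfolded proteins to the proteasome. In the controls it had 621, 467 and 330 CPM. With decitabine the samples had 137, 137 and 136 CPM, and with the combination treatment 103, 109 and 126 CPM. It had the lowest fold change of the 10 genes in both treatments, with no overlap between treated samples and controls. This amounted to a log2 fold change of -1.79 with decitabine (standard error 0.2, edgeR adjusted p = 6.6e-05) and -2.07 with the combination treatment (standard error 0.21, edgeR adjusted p = 3e-05). All fits that left out 1 library kept both calls, and the smallest changes were -1.55 and -1.83.

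PDIA4 (ENSG00000155660, chr7:149003062-149028662, minus strand) encodes ERp72, a disulfide isomerase. It had 969, 688 and 479 CPM in the controls, 423, 478 and 462 CPM with decitabine, and 428, 452 and 457 CPM with the combination treatment. The highest decitabine sample and the lowest control differed by less than the spread within either group. The log2 fold change was -0.65 with decitabine (standard error 0.22, edgeR adjusted p = 0.027) and -0.68 with the combination treatment (edgeR adjusted p = 0.023). Neither passed with library size alone (edgeR adjusted p = 0.14 and 0.099), and the calls were also lost without decitabine replicate 1 or 3 and without combination replicate 1 or 3, respectively.

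CALR and CANX encode calreticulin and calnexin, a soluble and a membrane-bound lectin chaperone that hold newly made glycoproteins while they fold, and they differed in these data. CALR (ENSG00000179218, chr19:12938578-12944489, plus strand) had 2936, 2295 and 1705 CPM in the controls, 1261, 1487 and 1521 CPM with decitabine, and 1240, 1386 and 1438 CPM with the combination treatment. All treated samples were under all controls. CALR fell by 0.7 on the log2 scale with decitabine (standard error 0.17, edgeR adjusted p = 0.0036) and by 0.77 with the combination treatment (edgeR adjusted p = 0.0021), and every fit that left out 1 library kept both calls. CANX (ENSG00000127022, chr5:179678628-179731641, plus strand) had 902, 813 and 744 CPM in the controls, 831, 831 and 771 CPM with decitabine, and 773, 821 and 870 CPM with the combination treatment. The groups overlapped in all comparisons. The log2 fold change of CANX was -0.01 with decitabine (95% interval -0.19 to 0.16, edgeR adjusted p = 0.88) and 0.004 with the combination treatment (95% interval -0.17 to 0.18, edgeR adjusted p = 0.97). With library size alone these values were 0.23 in both (edgeR adjusted p = 0.021 and 0.023). The intervals of CALR and CANX did not overlap in either comparison, and the difference between the genes was not itself tested.

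XBP1 (ENSG00000100219, chr22:28794555-28800597, minus strand) encodes the transcription factor made after splicing by IRE1. It had 153, 120 and 105 CPM in the controls, 85.1, 88.7 and 88.8 CPM with decitabine, and 74.2, 69.3 and 79.7 CPM with the combination treatment. No treated sample reached the lowest control. XBP1 had a log2 fold change of -0.53 with decitabine (standard error 0.11, edgeR adjusted p = 0.00081) and -0.77 with the combination treatment (standard error 0.11, edgeR adjusted p = 4.4e-05), and all 9 fits that left out 1 library kept both calls. ERN1 (ENSG00000178607, chr17:64039080-64130819, minus strand), which encodes IRE1 itself, had 45.2, 38.5 and 36.4 CPM in the controls, 34.5, 44.3 and 51 CPM with decitabine, and 34.7, 43.5 and 53.5 CPM with the combination treatment. Each treated group held samples both under and over all 3 controls. Its log2 fold change was 0.11 with decitabine (95% interval -0.28 to 0.51, edgeR adjusted p = 0.6) and 0.13 with the combination treatment (95% interval -0.26 to 0.53, edgeR adjusted p = 0.53).

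**Figure D3:**
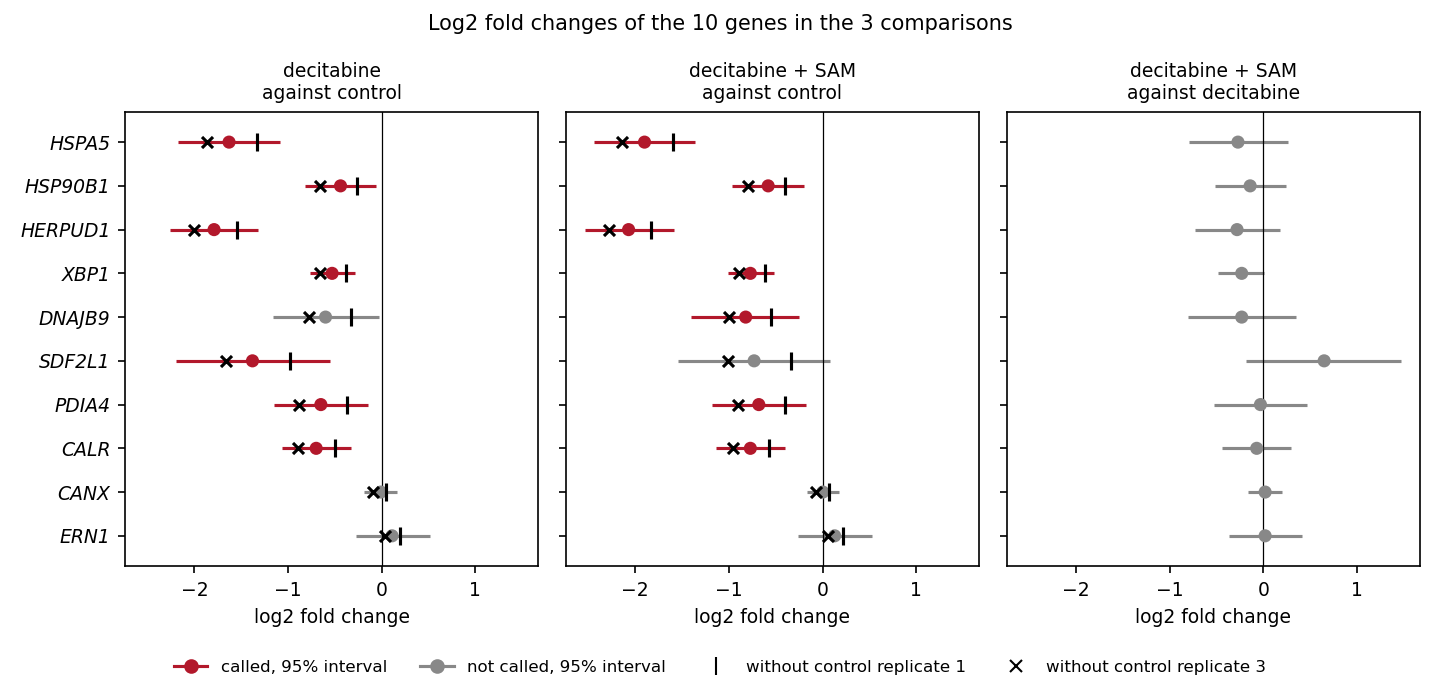
Log2 fold change of each of the 10 genes in the 3 comparisons, with 95% intervals from edgeR's quasi-likelihood fit, red where the adjusted p was under 0.05. The vertical ticks and crosses give the values without control replicate 1 and without control replicate 3, which move the comparisons with the controls to weaker and stronger falls, respectively, while CANX and ERN1 stay near 0.

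In 6 of the 10 genes, all decitabine samples were under all controls (HSPA5, HERPUD1, XBP1, CALR, SDF2L1 and PDIA4), against 34.8% of all genes tested. With the combination treatment it was also 6 genes, with DNAJB9 in place of SDF2L1, against 33.6% of all genes. The 10 genes took 1.12%, 0.859% and 0.621% of all counts in the controls. They took 0.576%, 0.616% and 0.609% with decitabine and 0.51%, 0.543% and 0.593% with the combination treatment. By these shares, which are not TMM-scaled, the highest treated sample was close to the lowest control. As a share of the TMM-scaled library, the lowest control had 0.689% and the highest treated sample 0.583%. HSPA5 alone took 0.325%, 0.224% and 0.156% of all counts in the controls. Its range was 0.0873% to 0.0914% with decitabine and 0.0699% to 0.0802% in the combination group.

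Per kilobase of the canonical transcript in GENCODE release 44, CALR was the highest of the 10 genes in the controls, with 1216 ± 324 CPM per kb (SD, n = 3). HSP90B1 (872 ± 248) and HSPA5 (668 ± 243) followed, and these neighbours overlapped in their ranges over the controls. PDIA4 (257 ± 88.8), CANX (167 ± 16) and HERPUD1 (166 ± 51) came next, then SDF2L1 (105 ± 47.6) and XBP1 (70.6 ± 13.7), each of these 5 overlapping with the next. DNAJB9 (18.1 ± 5.65) and ERN1 (5.07 ± 0.579) were lowest, and their ranges did not overlap with each other or with XBP1. In the treated groups, CALR, HSP90B1 and HSPA5 kept these places, with HSPA5 at 216 ± 7.76 CPM per kb with decitabine and 179 ± 10.8 with the combination treatment. CANX, with 165 ± 7.03 and 167 ± 9.87, and PDIA4, with 164 ± 10.3 and 161 ± 5.66, overlapped in both treated groups. HERPUD1, with 47.9 ± 0.165 and 39.6 ± 4.19 CPM per kb, overlapped with XBP1, with 48.9 ± 1.18 and 41.5 ± 2.89. With the summed length of all exons, HSPA5 was in place 2 and HSP90B1 in place 4 in the controls, and in the treated groups PDIA4 was in place 2 and HSPA5 in place 4, so the order in the middle depends on the transcript taken.

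In the fit over all 9 libraries, none of the 10 genes was differentially expressed between the combination treatment and decitabine alone. In edgeR's quasi-likelihood test 0 genes passed, and 0 had an unadjusted p under 0.05. DESeq2 and voom with limma also gave 0. All of these fits share an estimate of each gene's spread over the 9 libraries, so the spread of the controls enters this comparison too. Of all genes tested, 15.7% were differentially expressed in this comparison. The 95% intervals of all 10 genes included 0, and XBP1 came closest to the threshold (log2 fold change -0.23, 95% interval -0.48 to 0.01, edgeR adjusted p = 0.17). HSPA5 had a log2 fold change of -0.27 (95% interval -0.79 to 0.26, edgeR adjusted p = 0.47) and HERPUD1 of -0.28 (95% interval -0.73 to 0.18, edgeR adjusted p = 0.39). In HSPA5, HERPUD1, XBP1 and HSP90B1 all samples of the combination treatment were nevertheless under all decitabine samples, where 16.8% of all genes tested had such a pattern and 34.0% had groups without overlap in either direction. SDF2L1 was the gene with the opposite order: its 3 values with the combination treatment were above those with decitabine alone, with a log2 fold change of 0.65 (95% interval -0.18 to 1.47, edgeR adjusted p = 0.26). When only the 6 libraries of the treated groups were fitted, HSPA5 (-0.27, edgeR adjusted p = 0.044) and SDF2L1 (0.64, edgeR adjusted p = 0.028) passed the test. In that fit the controls do not enter the spread. PDIA4, CALR, CANX and ERN1 had values between -0.07 and 0.02.

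Over the 9 libraries, the log2 CPM of HSPA5 had a Pearson r of 0.997 with HERPUD1, 0.97 with XBP1, 0.95 with CALR, 0.91 with PDIA4, 0.89 with HSP90B1, 0.87 with DNAJB9 and 0.75 with SDF2L1. ERN1 (-0.11) and CANX (0.27) stood apart. Among the 13630 genes whose mean reached 50 counts, the 5 whose log2 CPM was most like that of HSPA5 were HYOU1 (0.998), SEC23B (0.997), HERPUD1 (0.997), WARS1 (0.996) and CRELD1 (0.993). HYOU1 encodes an ER chaperone related to Hsp70, SEC23B a coat protein of vesicles leaving the ER, and WARS1 the cytosolic tryptophanyl-tRNA synthetase. Each r is a description: the libraries share their 3 groups, and a gene that follows both the group differences and the spread of the controls has a high r.

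Other genes were taken as 8 lists with 114 genes, all of which were tested. Of these, 7 lists with 96 genes belong to the same system, and the list of 18 genes of the cytosol and mitochondria was taken for comparison. In the 96 genes, 58 were downregulated and 14 upregulated with decitabine, and 58 and 15 with the combination treatment, with medians of -0.34 and -0.4. With library size alone it was 33 and 26, and 43 and 24. With decitabine 69 of the 114 were downregulated and 15 upregulated, and with the combination treatment 68 and 15, with medians of -0.36 and -0.39 on the log2 scale. Of all genes tested, 32.5% were downregulated and 36.3% upregulated with decitabine and 31.3% and 35.9% with the combination treatment, with medians of 0.035 and 0.048. Scaling by library size alone gave 40 downregulated and 28 upregulated with decitabine, and 51 and 27 with the combination treatment, where the same scaling called 20.2% and 47.7%, and 20.8% and 46.9%, of all genes. The medians were lowest in the list around PERK and ATF4 and in the cofactors of BiP. In the lists of the lectin cycle, of isomerases, of ER-associated degradation and of the translocon, library size alone gave as many or more upregulated than downregulated genes with decitabine.

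**Figure D4:**
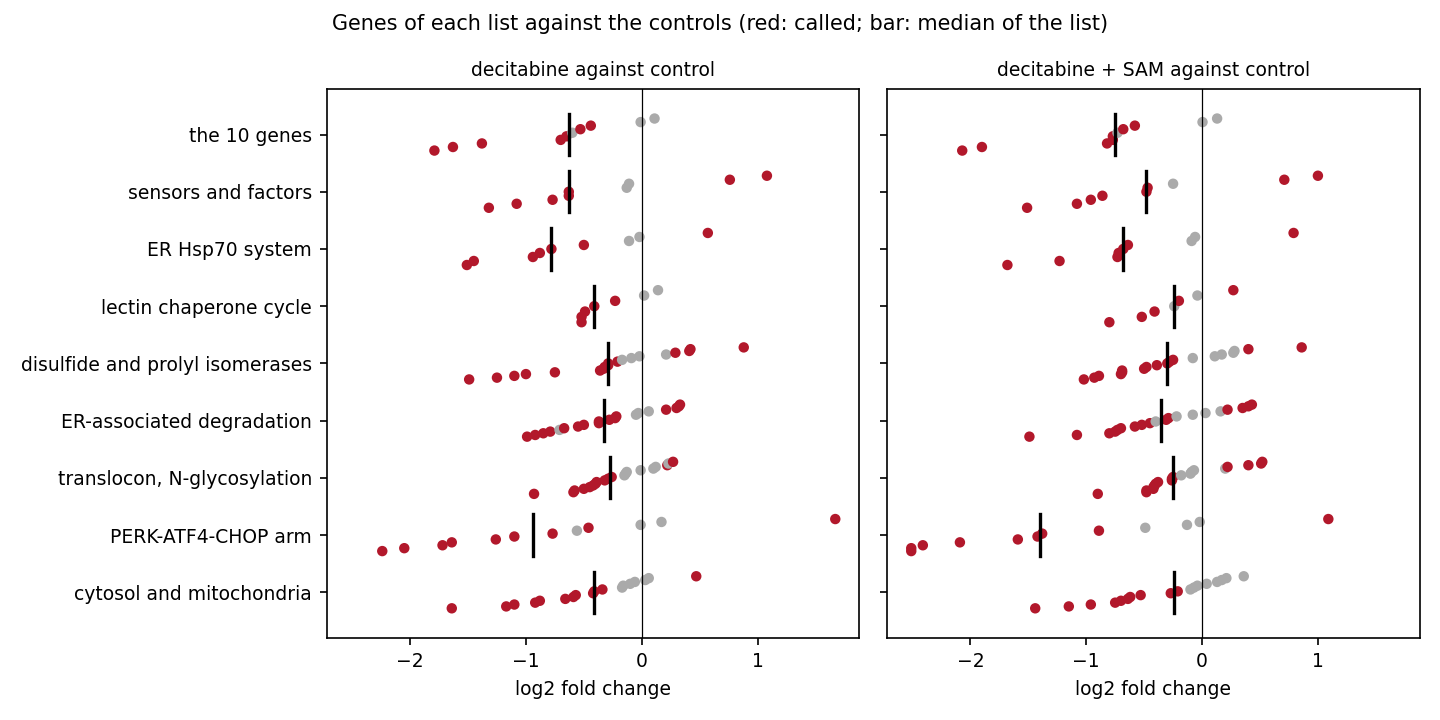
Log2 fold changes of the 10 genes and of the genes of the 8 lists against the controls, 1 point per gene, red where the adjusted p of edgeR's quasi-likelihood test was under 0.05, with the list's median as a bar. The medians of the list around PERK and ATF4 are -0.94 and -1.4, farther below 0 than those of the other lists, which lie between -0.78 and -0.24.

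In the ER Hsp70 system, which holds the J-proteins and exchange factors that drive BiP, 6 of 9 genes were downregulated and 1 upregulated in each treatment. HYOU1, the exchange factor named above, fell from 617 CPM to 226 and 193, with log2 fold changes of -1.45 and -1.68 (edgeR adjusted p = 0.001 and 0.0005). MANF, a cofactor that stabilises BiP with its clients, fell from 256 CPM to 89.8 and 109. DNAJB11, DNAJC3, CRELD2 and SIL1 were the other downregulated genes. DNAJC1, a membrane J-protein, rose from 33.1 CPM to 49.3 and 57.4 (log2 fold change 0.57 and 0.79, edgeR adjusted p = 2.7e-05 and 1.2e-06).

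Of the other sensors and their transcription factors, 5 of 9 were downregulated and 2 upregulated with decitabine, and 6 and 2 with the combination treatment. ATF6B, a relative of the sensor ATF6, fell from 68.9 CPM to 27.6 and 24.2 (log2 fold change -1.32 and -1.51, edgeR adjusted p = 2.3e-08 and 7e-09). CREB3L4, a membrane-bound transcription factor of the same kind, fell from 25 CPM to 14.7 and 11.9. CREB3L1, another member of that family, rose from 41.4 CPM to 87.5 and 83.1 (log2 fold change 1.08 and 1, edgeR adjusted p = 1.1e-07 and 2.3e-07). MBTPS1 and MBTPS2, the proteases that release ATF6, were downregulated in both treatments, and EIF2AK3, which encodes PERK, passed the test in neither.

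In the list around PERK and ATF4, 8 of 12 genes were downregulated and 1 upregulated in each treatment. ATF4 fell from 452 CPM to 211 and 168 (log2 fold change -1.1 and -1.42, edgeR adjusted p = 1.1e-07 and 9.4e-09). ASNS, the asparagine synthetase, fell from 198 CPM to 47.8 and 34.7, and NUPR1, a stress-induced nuclear protein, from 70.6 CPM to 22.7 and 12.3. DDIT3, which encodes CHOP, had a log2 fold change of -0.77 with decitabine and -1.59 with the combination treatment (edgeR adjusted p = 0.027 and 0.001). ATF3, a stress-induced transcription factor, rose from 19.6 CPM to 62.5 and 41.6. Its call with the combination treatment (log2 fold change 1.09, edgeR adjusted p = 0.031) was kept in 5 of the 9 fits that left out 1 library. It was lost without control replicate 1, 2 or 3 or combination replicate 3.

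In the lectin chaperone cycle, 5 of 7 genes were downregulated with decitabine and 4 with the combination treatment, with 0 and 1 upregulated. UGGT2, which marks misfolded glycoproteins for another round, had log2 fold changes of -0.52 and -0.8, and GANAB, the catalytic subunit of glucosidase II, of -0.49 and -0.52. SELENOF, a partner of the UGGT enzymes, passed with the combination treatment (log2 fold change 0.27, edgeR adjusted p = 0.02). This call was lost without control replicate 2 or 3 or combination replicate 2. With decitabine SELENOF passed in 1 of the 9 fits that left out 1 library, that without control replicate 1 (0.22, edgeR adjusted p = 0.047). Among disulfide and prolyl isomerases, 11 of 19 were downregulated and 4 upregulated with decitabine, and 12 and 2 with the combination treatment. With library size alone it was 5 and 6, and 8 and 6. PPIB, the ER cyclophilin, fell from 369 CPM to 155 and 182, and FKBP11 from 28 CPM to 9.93 and 14.7. ERO1A, the oxidase that recharges disulfide isomerases, rose from 121 CPM to 223 and 220 (log2 fold change 0.88 and 0.86, edgeR adjusted p = 1.2e-07 and 1.6e-07).

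Of the genes of ER-associated degradation, 12 of 20 were downregulated and 4 upregulated with decitabine, and 11 and 4 with the combination treatment. With library size alone it was 6 and 6, and 9 and 6. UBE2G2, a ubiquitin-conjugating enzyme of this pathway, fell from 152 CPM to 84.5 and 54.1, and SEL1L, the adaptor of the HRD1 ligase, from 296 CPM to 149 and 141. Of 20 genes of the translocon and of N-glycosylation, 11 were downregulated in each treatment, 2 were upregulated with decitabine and 4 with the combination treatment, but with library size alone it was 4 downregulated in each, with 6 and 5 upregulated. SSR2, a subunit of the translocon-associated complex, fell from 271 CPM to 142 and 145, and SEC62 had log2 fold changes of -0.59 and -0.48. SEC61G, a subunit of the Sec61 channel, rose by 0.27 and 0.52, the former call being lost without control replicate 2 or 3, decitabine replicate 3 or combination replicate 1 or 2.

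Genes outside the ER were taken for comparison. Of 18 chaperones and proteases of the cytosol and mitochondria, 11 were downregulated and 1 upregulated with decitabine, and 10 and 0 with the combination treatment, against the shares of all genes given above. With library size alone it was 7 and 2, and 8 and 3. LONP1, the protease of the mitochondrial matrix, fell from 511 CPM to 163 and 188 (log2 fold change -1.64 and -1.44, edgeR adjusted p = 7.5e-10 and 2.7e-09), and TRAP1, the mitochondrial Hsp90, from 233 CPM to 104 and 105. HSPA8 was downregulated in both treatments, with log2 fold changes of -0.59 and -0.62, and its highest control was replicate 3. HSPA1A and HSPA1B were also highest in control replicate 3. HSPA1A went from a control mean of 185 CPM to 193 and 239, and HSPA1B from 131 CPM to 126 and 148.

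Between the combination treatment and decitabine, 15 of the 114 genes of the lists were differentially expressed, 10 lower and 5 higher, against 8.02% and 7.67% of all genes. This number was 4 without decitabine replicate 2, 9 without decitabine replicate 1, 7 without combination replicate 1, 5 without combination replicate 2 and 24 without combination replicate 3. The shares of all genes in these fits are not given here. UBE2G2 was lower with the combination treatment by 0.64 on the log2 scale (edgeR adjusted p = 0.00059), and AUP1, which binds UBE2G2 at the ER membrane, was higher by 0.44 (edgeR adjusted p = 0.0028). RPN2, a subunit of the oligosaccharyltransferase, had a log2 fold change of -0.4 (edgeR adjusted p = 0.0039) and TXNDC12, a thioredoxin of the ER, of -0.38 (edgeR adjusted p = 0.0048). These 4 were significant in all 9 fits that left out 1 library. FKBP11 (0.57, edgeR adjusted p = 0.01), ATF6 (-0.36), UBXN4 (-0.3), CLPP (0.37) and SEC61B (0.34) passed with edgeR adjusted p-values from 0.01 to 0.017. CHAC1 (-0.43), ATF4 (-0.33), FKBP9 (-0.23), PRDX4 (0.26), FKBP10 (-0.29) and HERPUD2 (-0.26) passed with edgeR adjusted p-values from 0.022 to 0.046. Each of these 11 calls was lost without decitabine replicate 2, and each but that of FKBP11 without combination replicate 2. Of the 9 fits that left out 1 library, the call was kept in 7 for FKBP11, ATF6 and UBXN4, in 6 for CHAC1, in 5 for CLPP and SEC61B, in 4 for ATF4, FKBP9, PRDX4 and FKBP10, and in 1 for HERPUD2, the relative of HERPUD1.

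The genes with an ERSE in their promoter were also read as a group, as a description. Of the 16 genes tested with an exact ERSE in a window, 10 (62.5%) were downregulated with decitabine and 11 (68.8%) with the combination treatment. Among all 12866 genes tested with a promoter window, it was 36.2% and 34.7%. With an exact ERSE or ERSE-II, 18 of 31 genes (58.1%) were downregulated in each treatment. The 16 include 5 of the 10 genes described here, of which HSPA5, HSP90B1, XBP1 and CALR fell and CANX did not pass the test. The 31 also include HERPUD1 and SDF2L1. The 10 genes were chosen with earlier results of these data known, so these shares are partly set by that choice.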

How the data were processed

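RNA-seq of PC-3 cells was performed by the authors on the BGISEQ-500 platform. According to the methods, reads were filtered with TrimGalore 0.6.4 and counted with kallisto against GRCh38.p13, with version 0.46.1 in the methods and 0.4.6 in the submitters' processing notes, which also name edgeR 3.17. The deposited values used here were estimated counts per Ensembl gene, with decimals and not normalized, and the deposited log2 CPM values were not used. Since kallisto splits reads between similar transcripts, copies of a gene can share counts. Known copies of the 10 genes had at most 32 counts in a library. In all, 60357 of 60617 identifiers were matched to symbols of GENCODE release 44.

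Counts were rounded, filtered with filterByExpr and scaled with TMM, and 18532 genes were tested with edgeR 4.0.16 (quasi-likelihood test, robust, group means over all 9 libraries) in R 4.3.3. Adjustment followed Benjamini and Hochberg over all genes tested, with a threshold of 0.05. Standard errors are the log2 fold change divided by the root of the F statistic. DESeq2 1.42.0 and limma 3.58.1 with voom, the method of the study, served as alternatives. DESeq2 called 8 of the 10 genes downregulated with decitabine and 7 with the combination treatment, and voom with limma 8 and 8. Between the treatments they called 20 and 18 genes of the lists, against 15 in the main fit. Shares of all genes are not given for these fits. The sample titles gave the groups and the replicate numbers. The replicate number was not used as a block. No library was a copy of another (chi-square per degree of freedom of 5.86 or more). The edgeR fit was also run on simulated counts with 200 changed genes, as many raised as lowered. In the data themselves 6030 genes were downregulated and 6729 upregulated with decitabine, so this simulation does not test the scaling.

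The 10 genes and the 8 lists were chosen with earlier results of these data known. Named in each list were the 2 genes with the lowest and the 1 with the highest log2 fold change among those significant with the combination treatment, and each gene significant between the treatments. Some results on single genes that this rule or the marker check would name are not given here. DNAJB11, DNAJC3, CRELD2, SIL1, MBTPS1, MBTPS2, EIF2AK3, DDIT3, HSPA1A, HSPA1B and HSPA8 were named outside this rule, after their values were seen. Lists were described by counts and medians without a set test. Protein sequences were not analysed here.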

Additional observations from a re-analysis of the deposited data

How the results depend on the processing

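The calls of HSPA5, HERPUD1, XBP1 and CALR against the controls and that of SDF2L1 with decitabine were kept in every fit run, with no limit on the fold change. Those of HSP90B1 and PDIA4 in both treatments and of DNAJB9 with the combination treatment were lost in at least 1 fit. SDF2L1 with the combination treatment and DNAJB9 with decitabine, which had not passed the test, did so in at least 1 fit. A threshold of 1 on the absolute log2 fold change left 3 of the 10 genes with decitabine and 2 with the combination treatment, and 19, 18 and 0 genes of the lists in the 3 comparisons. With only the 6 libraries compared, 2 of the 10 genes passed between the treatments. When 1 library was left out, between 4 and 8 of the 10 genes were significant with the combination treatment, and between 4 and 24 genes of the lists between the treatments. Same-numbered samples had correlations of their deviations between -0.017 and 0.069 against the controls and between 0.036 and 0.233 between the treatments, where every sample correlated best with its own number, so the samples share a number but are not known to be pairs. With the replicate block, 5 of the 10 genes were significant in each comparison with the controls, and HSP90B1 with decitabine (edgeR adjusted p = 0.084), PDIA4 with decitabine and the combination treatment (0.074 and 0.066) and DNAJB9 with the combination treatment (0.068) were lost, while the genes of the lists called between the treatments went from 15 to 19. Shares of all genes tested are not given for the 6 libraries, for leaving out 1 library or for the replicate block. Values close to 0 changed sign. CANX with decitabine was 0.006 with DESeq2 or its size factors, 0.003 with a mean of at least 10 counts, 0.01 with the 6 libraries, 0.23 with library size alone and -0.09 to 0.05 when 1 library was left out. CANX with the combination treatment was -0.03 without a filter and -0.07 to 0.07 when 1 library was left out, and between the treatments -0.005 with library size alone and -0.02 to 0.06. ERN1 ranged over -0.03 to 0.25, -0.04 to 0.27 and -0.15 to 0.16 in the 3 comparisons when 1 library was left out, and was -0.002 between the treatments with library size alone. Between the treatments, leaving out 1 library gave ranges of -0.08 to 0.01 in PDIA4 and ERO1A, -0.22 to 0.01 in SEL1L, -0.01 to 0.11 in SSR2 and -0.05 to 0.09 in TRAP1. With decitabine it gave -0.05 to 0.004 in FKBP9 and -0.04 to 0.02 in RPN2, and with the combination treatment -0.14 to 0.07 in CLPP. With library size alone, decitabine against control turned to 0.13 in ATF6, 0.16 in PRDX4, 0.23 in FKBP9 and RPN2, 0.22 in HERPUD2, 0.02 in AUP1 and 0.11 in SEC61B, CLPP with the combination treatment to 0.18, and TRAP1 between the treatments to -0.004. FKBP9 with decitabine was 0.003 with DESeq2 or its size factors, 1e-05 with a mean of at least 10 counts and 0.009 with the 6 libraries. RPN2 was 0.009, 0.006 and 0.01 in these fits, and HERPUD2 0.0007 with the 6 libraries. The cause of these changes was not tested.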
